A study of Homo sapiens with 6 samples.

Results

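The matrix metalloproteinases (MMPs), the ADAM and ADAMTS proteases and the tissue inhibitors of metalloproteinases (TIMPs) were followed in p53 KO and p53 WT cells. Members were taken by gene symbol alone (MMP, ADAM or ADAMTS followed by a number, with a letter allowed after an MMP number, and TIMP followed by a digit), which gave 69 of the 55882 rows of the count table: 24 MMPs, 22 ADAMs, 19 ADAMTSs and 4 TIMPs. Polyadenylated RNA was sequenced from 3 libraries of p53 KO cells and 3 libraries of p53 WT cells. Both groups were DIvA cells. These are human U2OS osteosarcoma cells engineered to carry the restriction enzyme AsiSI in a form that reaches the nucleus and cuts DNA when 4-hydroxytamoxifen (4-OHT) is added. The cells of all 6 libraries carried this system and received 300 nM 4-OHT for 5 h. The p53 KO cells differed by the knockout their label names, and the labels give neither the number of knockout clones nor whether replicates were separate cultures, so the p-values measure only the spread between these samples, which may be technical. No untreated cells were analysed here.

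MMPs, ADAMs and ADAMTSs are zinc-dependent endopeptidases, most of them made as inactive precursors. MMPs cleave collagens, proteoglycans and other matrix proteins, ADAMs are membrane proteins many of which release the outer parts of growth factors, receptors and adhesion molecules from the cell surface, and ADAMTSs are secreted enzymes that process procollagens, proteoglycans and microfibrils. TIMPs bind the active site of the enzymes and block it, and TIMP3 also inhibits several ADAMs and ADAMTSs. In osteosarcoma cells, as in other mesenchymal cells, these enzymes are known for their part in the turnover and invasion of matrix.

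Total counts ranged between 20393909 and 72621732 in p53 KO libraries and between 24347609 and 79767519 in p53 WT libraries, and replicate 3 was the shallowest in both groups. CDKN1A, the p21 gene and a target of p53, stood at 45.8 ± 3.68 CPM in p53 KO cells and 542 ± 27.0 CPM in p53 WT cells (SD, n = 3 each; CPM are counts scaled to library size with factors from the trimmed mean of M-values), a log2 fold change of -3.56. Of 10 markers of the osteoblast lineage, 8 were tested, 1 was higher in p53 KO cells (COL1A1, at 929.5 CPM in p53 KO cells and 688 CPM in p53 WT cells) and 4 were lower. The lower ones were SPP1 (11.02 CPM in p53 KO cells and 64.7 CPM in p53 WT cells, log2 fold change -2.54), ALPL (1.66 CPM in p53 KO cells and 7.49 CPM in p53 WT cells, -2.11), SPARC and RUNX2. SP7 and IBSP, which define osteoblasts, were at 0 in all 6 libraries, and the summed level of the 10 ranged between 1685 and 2098 CPM in p53 KO libraries and between 1995 and 2023 CPM in p53 WT libraries. The summed level of 12 leukocyte markers ranged between 23.0 and 27.7 CPM in p53 KO libraries and between 19.5 and 22 CPM in p53 WT libraries. The corresponding sums were 588 to 716 CPM in p53 KO libraries and 499 to 559 CPM in p53 WT libraries for 13 epithelial markers, and 45.9 to 50.1 CPM in p53 KO libraries and 29.9 to 30.4 CPM in p53 WT libraries for 9 endothelial markers. For 9 markers of fibroblasts and smooth muscle the sum was 115 to 135 CPM in p53 KO libraries and 99.8 to 108 CPM in p53 WT libraries. Beside 12.1% of all genes tested that were called higher in p53 KO cells and 14.4% called lower, the calls were 2 higher and 1 lower of 6 leukocyte markers tested, 3 higher and 0 lower of 12 epithelial markers, 2 higher and 0 lower of 7 endothelial markers, and 3 higher and 2 lower of 7 fibroblast and smooth muscle markers. Of the leukocyte markers, ITGB2 (10.9 CPM in p53 KO cells and 3.80 CPM in p53 WT cells) and CORO1A (5.87 and 1.90 CPM) were called higher. CD68 (4.42 CPM in p53 KO cells and 11.6 CPM in p53 WT cells) was called lower, and LYZ was at 0 in all 6 libraries. The part of all these cell type markers in the results below was not tested.

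Of the 69 members, 45 had enough counts to be tested and 24 did not. The test, edgeR's quasi-likelihood test with Benjamini-Hochberg adjustment, called 24 of the 45 past an adjusted p of 0.05, which is 53.3%, beside 26.5% of all 22352 genes tested. Of these, 12 were higher in p53 KO cells, beside 12.1% of all genes tested, and 12 were lower, beside 14.4% of all genes tested. The median log2 fold change of the 45 was 0.02 and that of all genes tested was 0.01. At least a 2-fold change was called for 13 members, beside 9.25% of all genes tested. The ranges of the p53 KO and p53 WT libraries did not overlap for 27 members (60% of those tested), beside 40.8% of all genes tested. The members that changed divided by family: of the MMPs tested, 2 rose and 5 fell, of the ADAMs 1 rose and 5 fell, of the ADAMTSs 6 rose and 2 fell, and of the TIMPs 3 rose and none fell. A member such as MMP1 or MMP10 passed the filter on low counts only through the p53 WT libraries, so these shares and medians describe the members tested and not all 69. The members were also chosen with earlier results of these data known. Their shares beside those of all genes are therefore a description and not a test. In bulk samples, fewer cells that make a transcript and less of it per cell cannot be told apart.

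**Figure D1:**
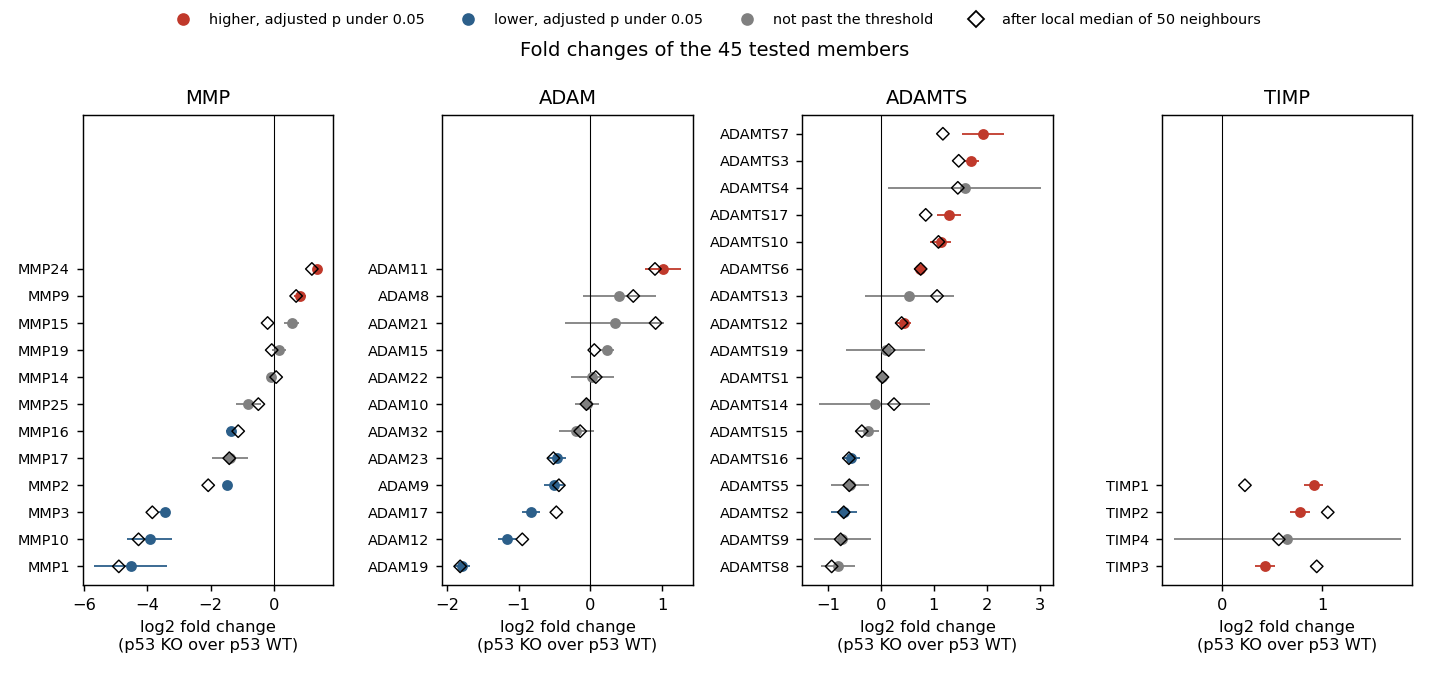
Log2 fold changes (p53 KO over p53 WT) with their standard errors for the 45 members tested, arranged by family. Red and blue points passed an adjusted p of 0.05 by edgeR's quasi-likelihood test, grey points did not, and open diamonds give the value after subtraction of the median of the 50 nearest tested protein-coding genes. The 3 lowest points are MMP1 (-4.53), MMP10 (-3.93) and MMP3 (-3.45), and TIMP1, TIMP2 and TIMP3 all lie above 0.

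Promoters were read for members whose start site is in the RefSeq table of GRCh38.p14, which matched 39 of the 69. MMP1, MMP2 and MMP3 were among the members not matched, so the motif shares below do not cover them and describe the matched members only. Each promoter is 300 bases long, with 250 bases before the transcription start and 50 after it. The letters TATAAA, the core of the TATA box, were found on either strand in 8 of the 39 (20.5%), beside 11.5% of the 35116 promoters in the table. GGGCGG, the core of a GC box, was found in 26 of the 39 (66.7%), beside 45% of all promoters, and the AP-1 motif TGAGTCA in 1 (MMP7, 2.56%), beside 4.95%. Among the 15 matched members that passed the test, 9 rose and 6 fell: TATAAA was in 1 that rose (ADAMTS10) and 1 that fell (MMP10), and GGGCGG in 8 that rose and 4 that fell. The 4 promoters below belong to members with large changes and were chosen after their values were seen, to set a promoter with a TATA box beside GC-rich ones. Capitals mark TATAAA or GGGCGG on either strand, and positions count back from the transcription start. MMP10 (chr11:102780579-102780878, minus strand) held TATAAA at -31 and was 36.3% G and C. ADAM19 (chr5:157575726-157576025, minus strand) held neither motif and was 75.7% G and C. ADAMTS3 (chr4:72569172-72569471, minus strand) held the reverse complement of GGGCGG at -44, and MMP24 (chr20:35226440-35226739, plus strand) held GGGCGG at -45 and its reverse complement at -87 and -58. A match is a description of the letters and not a binding site.
MMP10: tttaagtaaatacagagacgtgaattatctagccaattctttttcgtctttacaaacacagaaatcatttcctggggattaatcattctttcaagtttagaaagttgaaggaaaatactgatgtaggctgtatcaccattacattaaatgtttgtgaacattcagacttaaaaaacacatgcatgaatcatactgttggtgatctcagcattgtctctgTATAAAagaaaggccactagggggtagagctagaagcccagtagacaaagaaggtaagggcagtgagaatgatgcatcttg
ADAM19: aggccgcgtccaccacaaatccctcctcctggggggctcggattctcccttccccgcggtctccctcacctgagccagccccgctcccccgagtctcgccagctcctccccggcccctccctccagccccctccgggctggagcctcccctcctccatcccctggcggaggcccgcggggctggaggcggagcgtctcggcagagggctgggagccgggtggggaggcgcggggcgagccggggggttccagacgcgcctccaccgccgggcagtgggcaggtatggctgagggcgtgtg
ADAMTS3: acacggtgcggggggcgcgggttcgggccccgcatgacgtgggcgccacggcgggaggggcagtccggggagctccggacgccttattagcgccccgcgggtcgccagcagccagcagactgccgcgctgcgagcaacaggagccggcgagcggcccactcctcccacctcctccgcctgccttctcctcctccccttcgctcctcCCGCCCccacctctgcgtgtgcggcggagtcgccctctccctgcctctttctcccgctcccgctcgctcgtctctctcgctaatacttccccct
MMP24: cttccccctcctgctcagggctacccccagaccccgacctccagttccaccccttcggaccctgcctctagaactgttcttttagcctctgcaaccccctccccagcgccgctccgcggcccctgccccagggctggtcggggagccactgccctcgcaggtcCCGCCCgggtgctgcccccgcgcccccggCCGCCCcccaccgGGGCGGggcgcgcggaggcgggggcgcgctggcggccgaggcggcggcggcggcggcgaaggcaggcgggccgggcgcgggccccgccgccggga

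Among the members tested, MMP1, MMP10 and MMP3 had the lowest log2 fold changes. MMP3, a stromelysin that cleaves proteoglycans and activates other MMP precursors, had 10.1, 9.99 and 6.77 CPM in p53 KO libraries, against 113, 103 and 82.5 CPM in p53 WT libraries. Every p53 KO library lay far below every p53 WT library. The log2 fold change of MMP3 was -3.45 (SE 0.17, adjusted p = 9.41e-09), and the pooled counts were 1290 in p53 KO cells and 17815 in p53 WT cells. MMP10, the other stromelysin of the locus, whose TATA-containing promoter is printed above, had 0.216, 0.0733 and 0 CPM in p53 KO libraries, against 1.32, 2.19 and 2.06 CPM in p53 WT libraries. The groups did not overlap, and the log2 fold change was -3.93 (SE 0.70, adjusted p = 0.000836). Its pooled counts were 19 in p53 KO cells and 301 in p53 WT cells, 7.96% of the p53 WT level after scaling to depth (95% exact binomial interval 4.73% to 12.7%). MMP1, which cuts fibrillar collagen, had 0, 0.0244 and 0.200 CPM in p53 KO libraries, against 0.864, 0.506 and 2.30 CPM in p53 WT libraries. Its log2 fold change was -4.53 (SE 1.16, adjusted p = 0.00991). MMP1 had 5 counts in p53 KO cells and 158 in p53 WT cells, 3.99% of the p53 WT level (1.28% to 9.52%). These intervals cover counting error only and not the spread between libraries. Both MMP10 and MMP1 entered the test through their p53 WT counts, and at so few p53 KO counts their fitted fold changes are imprecise. Without p53 WT replicate 3, the highest library for MMP1, its log2 fold change was -3.56 and its call was lost (adjusted p = 0.105).

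These 3 genes lie side by side in the MMP cluster of chromosome 11, whose 9 genes run in the order MMP7, MMP20, MMP27, MMP8, MMP10, MMP1, MMP3, MMP12 and MMP13 in the RefSeq annotation of GRCh38.p14. The other 6 had too few counts for the test, and their pooled counts are given with exact binomial intervals that cover counting error only, since the reads carry no molecular identifiers. MMP12, the macrophage elastase, had 3 counts in p53 KO cells and 48 in p53 WT cells, which after scaling to depth is 7.89% of the p53 WT level (95% interval 1.57% to 24.5%). MMP13, a collagenase of cartilage and bone, had 1 count in p53 KO cells and 54 in p53 WT cells, 2.34% of the p53 WT level (0.0581% to 13.6%), but 49 of those 54 counts came from p53 WT replicate 1. MMP20, an enamel protease, had 4 counts in p53 KO cells and 14 in p53 WT cells, 36.1% of the p53 WT level (8.64% to 115%). MMP7, the matrilysin of epithelia, had 35 counts in p53 KO cells and 9 in p53 WT cells, 491% of the p53 WT level (231% to 1161%), but 29 of those 35 counts came from p53 KO replicate 1. Without that library MMP7 had 6 counts in p53 KO cells and 9 in p53 WT cells, 186% of the p53 WT level (54.6% to 586%), an interval that includes no difference. MMP8, the neutrophil collagenase, had 17 counts in p53 KO cells and 0 in p53 WT cells, all 17 of them in p53 KO replicate 1. MMP27 had 0 counts in p53 KO cells and 1 in p53 WT cells.

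Of the 20 neighbours outside the cluster, the 10 nearest tested genes on each side, 8 rose and 2 fell, beside 12.1% and 14.4% of all genes tested. Those that fell were BIRC2 (log2 fold change -0.72) and GUCY1A2 (-2.57). The other 10 were not called, and the median log2 fold change of the 20 was 0.25, beside 0.01 over all genes tested. The closest neighbours were TMEM123 (0.17, not called) before MMP7 and DCUN1D5 (0.38) after MMP13, and BIRC3, an inhibitor of apoptosis, rose by 1.54. Shifts shared along a chromosome segment can be reduced, whatever their cause, by subtracting a local median. This is the median log2 fold change of the 50 tested protein-coding genes nearest to each gene. The subtraction does not remove a change confined to the 9 genes of the cluster. After that subtraction MMP3 stood at -3.84, MMP10 at -4.28 and MMP1 at -4.90, slightly further from 0 than before it. Copy number was not measured here, and the cause of the change was not tested.

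**Figure D2:**
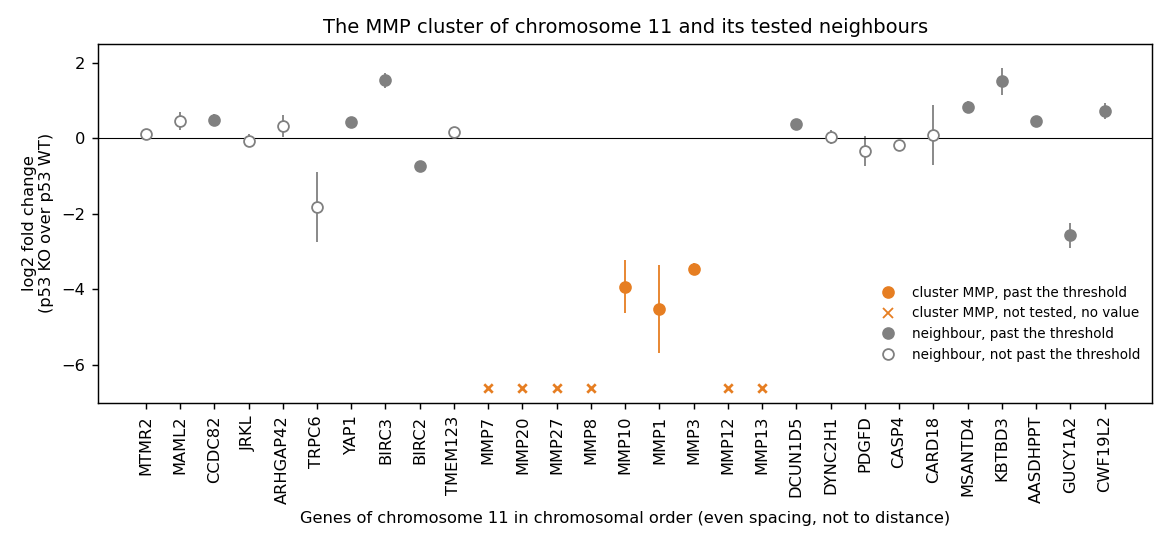
Log2 fold changes (p53 KO over p53 WT) with standard errors of the MMP cluster of chromosome 11 and its 20 tested neighbours, in chromosomal order with even spacing. Crosses mark cluster genes that were not tested and have no fold change. MMP10, MMP1 and MMP3 lie between -4.53 and -3.45, and the neighbours between -2.57 (GUCY1A2) and 1.54 (BIRC3).

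The gelatinases changed in opposite directions. MMP2, gelatinase A, which cleaves denatured collagen and basement membrane, had 39.2, 45.4 and 59.8 CPM in p53 KO libraries, against 131, 133 and 136 CPM in p53 WT libraries. The p53 WT libraries were close to each other and all above the highest p53 KO library, and the log2 fold change was -1.47 (SE 0.14, adjusted p = 3.19e-06). The genes around MMP2 were on the whole higher in p53 KO cells (local median log2 fold change 0.60), so that relative to them MMP2 stood at -2.07 (adjusted p = 2.05e-07). MMP2 was also the single member that the authors' deposited table marks as meeting a p53 cistrome, 1 of the 64 members in that table (1.56%), beside 124 of its 35987 rows (0.345%). MMP9, gelatinase B, had 12.4, 15.5 and 19.2 CPM in p53 KO libraries, against 7.72, 9.52 and 9.21 CPM in p53 WT libraries. All p53 KO libraries were above all p53 WT libraries, and MMP9 rose by 0.83 on the log2 scale (SE 0.19, adjusted p = 0.0052). Exons of an antisense RNA, SLC12A5-AS1, overlap 18.4% of the exon bases of MMP9 in GENCODE 29, and no source used here gives the strand setting of the count. Reads from that stretch therefore cannot be assigned to either gene.

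The membrane-type MMPs, which stay at the cell surface, were all tested. Of the 6, 1 rose and 1 fell, beside 12.1% and 14.4% of all genes tested. MMP24, known for cleaving N-cadherin, had 80.7, 104 and 110.4 CPM in p53 KO libraries, against 36.8, 36.8 and 40.2 CPM in p53 WT libraries. All p53 KO libraries lay well above all p53 WT libraries, and MMP24 rose by 1.37 on the log2 scale (SE 0.13, adjusted p = 2.93e-06). MMP16 had 27.2, 33.7 and 20.4 CPM in p53 KO libraries, against 59.7, 70.7 and 79.5 CPM in p53 WT libraries, without overlap, and fell by 1.36 (SE 0.16, adjusted p = 3.52e-05). MMP14, the membrane-type enzyme that activates the MMP2 precursor together with TIMP2, averaged 71.4 ± 5.57 CPM in p53 KO cells and 75.7 ± 4.76 CPM in p53 WT cells (SD, n = 3 each). Its libraries overlapped, and its log2 fold change of -0.09 (SE 0.11) was not called (adjusted p = 0.607); relative to its chromosomal neighbours the value was 0.07. MMP15 (0.56, adjusted p = 0.115), MMP17 (-1.39, adjusted p = 0.0914) and MMP25 (-0.80, adjusted p = 0.171) did not pass the test either, at mean levels of 5.15, 0.532 and 0.961 CPM in p53 KO cells, against 3.46, 1.41 and 1.69 CPM in p53 WT cells. MMP19, the remaining MMP tested, averaged 13.5 CPM in p53 KO cells and 11.9 CPM in p53 WT cells (0.17, adjusted p = 0.636).

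Among the ADAMs, the meltrins fell most. ADAM19 (meltrin beta), a sheddase of neuregulin whose GC-rich promoter is printed above, had 42.2, 51.1 and 50.9 CPM in p53 KO libraries, against 151, 167 and 181 CPM in p53 WT libraries. ADAM12 (meltrin alpha), which sheds heparin-binding EGF-like growth factor, had 76.9, 99.9 and 77.8 CPM in p53 KO libraries, against 160, 200.3 and 209 CPM in p53 WT libraries. Neither gene showed overlap between the groups. ADAM19 fell by 1.79 on the log2 scale (SE 0.11, adjusted p = 1.06e-07) and ADAM12 by 1.16 (SE 0.13, adjusted p = 1.67e-05), and relative to their neighbours on the chromosome the values were -1.82 and -0.95.

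The main sheddases of the cell surface differed from each other. ADAM17, the enzyme that releases TNF and ligands of the EGF receptor, had 33.9, 37.9 and 27.9 CPM in p53 KO libraries, against 55.5, 63.2 and 58.8 CPM in p53 WT libraries. The groups were apart, and ADAM17 fell by 0.83 (SE 0.13, adjusted p = 0.000256), or by 0.47 relative to its neighbours (adjusted p = 0.0162), which were themselves lower in p53 KO cells (local median -0.35). Exons of IAH1 on the other strand overlap 28.5% of the exon bases of ADAM17, so the reads of that stretch cannot be assigned without the strand setting. ADAM10, the alpha-secretase of the amyloid precursor and a sheddase of Notch receptors, had 109.8, 112 and 67.1 CPM in p53 KO libraries, against 87.4, 113 and 98.6 CPM in p53 WT libraries. Here the groups overlapped, with p53 KO replicate 3 the lowest of all 6, and the log2 fold change was -0.05 (SE 0.16, adjusted p = 0.87). Without p53 KO replicate 3 it was 0.16, and without p53 WT replicate 2 it was 0.05, neither called. ADAM9, a widely expressed sheddase, had 178, 234 and 158 CPM in p53 KO libraries, against 237, 282 and 291 CPM in p53 WT libraries, with a small gap between the groups, and fell by 0.51 (SE 0.13, adjusted p = 0.0118). That call was lost without p53 KO replicate 1 (-0.46, adjusted p = 0.059), p53 WT replicate 2 (-0.48, adjusted p = 0.0548) or p53 WT replicate 3 (-0.46, adjusted p = 0.0562). ADAM15, which is abundant in these cells, averaged 80.3 CPM in p53 KO cells and 68.5 CPM in p53 WT cells and was not called (0.23, adjusted p = 0.118).

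ADAM11, ADAM22 and ADAM23 lack protease activity and are known as partners of LGI proteins at synapses. ADAM11 had 5.28, 7.37 and 9.22 CPM in p53 KO libraries, against 4.06, 3.26 and 3.41 CPM in p53 WT libraries, and rose by 1.01 (SE 0.25, adjusted p = 0.00852), the single ADAM that rose. ADAM23 had 22.5, 23.0 and 20.5 CPM in p53 KO libraries, against 26.0, 35.0 and 30.5 CPM in p53 WT libraries, and fell by 0.47 (SE 0.14, adjusted p = 0.0213). For both genes the groups did not overlap, but the ADAM23 call was lost without p53 WT replicate 2 (-0.36, adjusted p = 0.15) or p53 WT replicate 3 (-0.48, adjusted p = 0.0592). ADAM22 was at 3.36 CPM in p53 KO cells and 3.25 CPM in p53 WT cells and was not called (0.03, adjusted p = 0.962). ADAM8, ADAM21 and ADAM32 were not called either, with log2 fold changes of 0.41, 0.34 and -0.20.

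**Figure D3:**
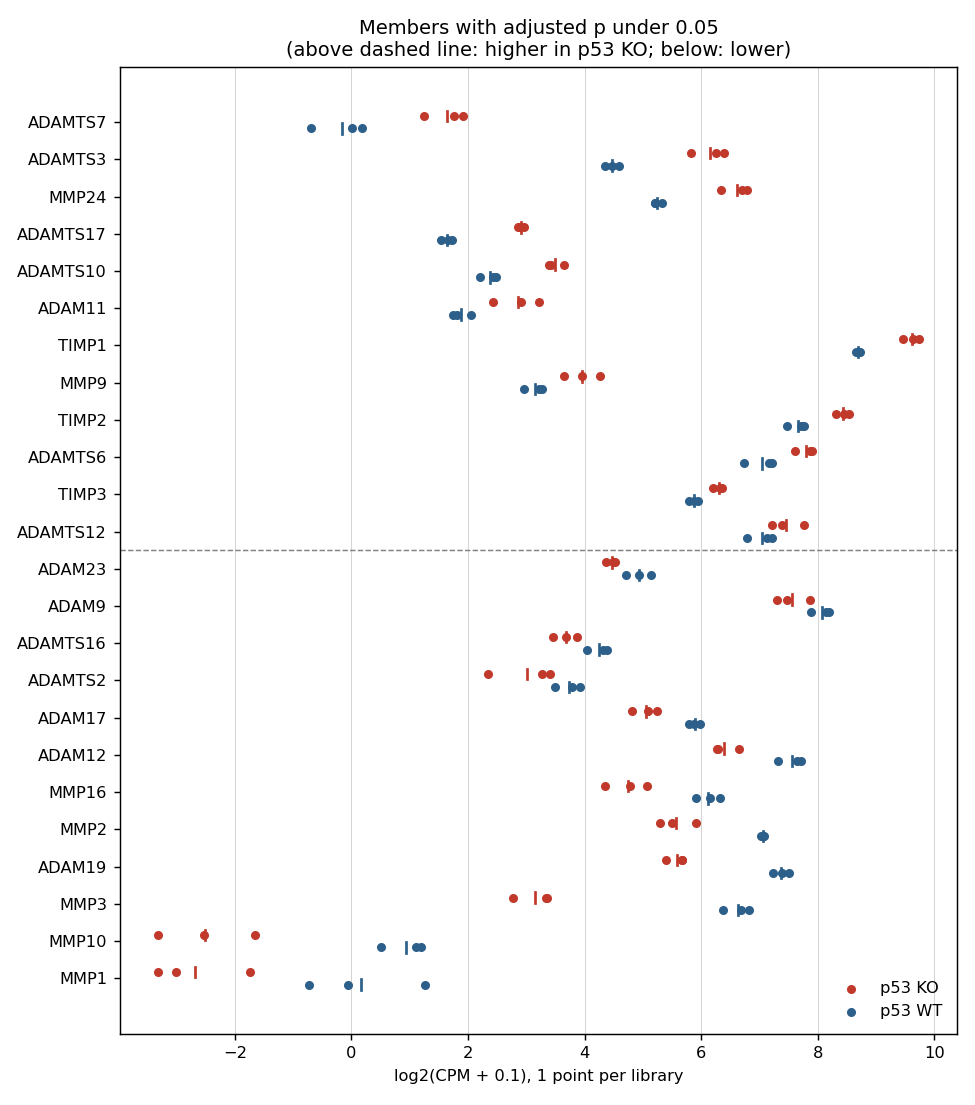
Levels on the scale of log2(CPM + 0.1) of the 24 members that passed the test, with 1 point per library and a vertical tick at the mean, p53 KO libraries (red) above p53 WT libraries (blue) for each gene. Members above the dashed line were higher in p53 KO cells and those below it were lower. The gap between the groups is widest for MMP3, where p53 KO libraries lie at 6.77 to 10.1 CPM and p53 WT libraries at 82.5 to 113 CPM.

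Of the 17 ADAMTS genes tested, 6 rose and 2 fell, beside 12.1% and 14.4% of all genes tested. ADAMTS3, which removes the amino-terminal propeptide of procollagen and activates the lymphatic growth factor VEGF-C, had 76.5, 83.3 and 56.3 CPM in p53 KO libraries, against 20.4, 23.9 and 22 CPM in p53 WT libraries. The lowest p53 KO library was above all p53 WT libraries, and ADAMTS3 rose by 1.71 (SE 0.15, adjusted p = 1.58e-06). ADAMTS2, the principal enzyme for the same propeptide in skin collagen, had 5.00, 9.5 and 10.5 CPM in p53 KO libraries, against 15.1, 13.7 and 11.1 CPM in p53 WT libraries. The groups were separated by a narrow gap. ADAMTS2 fell by 0.70 (SE 0.25) and lay just inside the threshold (adjusted p = 0.0496); the call was lost under several other settings and without p53 KO replicate 1 (-0.42, adjusted p = 0.153), p53 WT replicate 1 (-0.61, adjusted p = 0.145), p53 WT replicate 2 (-0.68, adjusted p = 0.134) or p53 WT replicate 3 (-0.82, adjusted p = 0.0546). ADAMTS14, the last of the procollagen enzymes, averaged 0.183 CPM in p53 KO cells and 0.195 CPM in p53 WT cells and was not called (-0.12, adjusted p = 0.953).

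ADAMTS6, ADAMTS10 and ADAMTS17 act on fibrillin microfibrils, and ADAMTS10 and ADAMTS17 are mutated in Weill-Marchesani syndrome. ADAMTS6 had 239.97, 232 and 195 CPM in p53 KO libraries, against 106, 144 and 149 CPM in p53 WT libraries, and rose by 0.74 (SE 0.13, adjusted p = 0.000667). ADAMTS10 had 12.4, 10.4 and 10.7 CPM in p53 KO libraries, against 5.26, 5.49 and 4.52 CPM in p53 WT libraries, and rose by 1.13 (SE 0.19, adjusted p = 0.000547). ADAMTS17 had 7.31, 7.13 and 7.72 CPM in p53 KO libraries, against 3.05, 3.20 and 2.80 CPM in p53 WT libraries, and rose by 1.29 (SE 0.22, adjusted p = 0.0006). None of the 3 showed overlap between groups. Relative to the neighbouring genes ADAMTS17 stood at 0.84, since its neighbours had a local median of 0.44.

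ADAMTS7 and ADAMTS12 degrade the cartilage oligomeric matrix protein. ADAMTS7 had 2.26, 3.30 and 3.66 CPM in p53 KO libraries, against 0.521, 0.907 and 1.03 CPM in p53 WT libraries, and rose by 1.92 (SE 0.40, adjusted p = 0.00242). Its neighbours were also higher in p53 KO cells (local median 0.76), and relative to them the value was 1.17 and no longer called (adjusted p = 0.0505). ADAMTS12 had 149, 217 and 168 CPM in p53 KO libraries, against 109.6, 139 and 148 CPM in p53 WT libraries, so that the lowest p53 KO library barely cleared the highest p53 WT library, and it rose by 0.43 (SE 0.14, adjusted p = 0.0392). The ADAMTS12 call was lost relative to its neighbours (0.39, adjusted p = 0.0722) and without p53 KO replicate 2 (0.25, adjusted p = 0.195), p53 WT replicate 1 (0.30, adjusted p = 0.173) or p53 WT replicate 2 (0.46, adjusted p = 0.0818). ADAMTS16 had 12.8, 14.6 and 10.9 CPM in p53 KO libraries, against 16.3, 20.7 and 19.9 CPM in p53 WT libraries, and fell by 0.57 (SE 0.16, adjusted p = 0.0196). Its call was lost without p53 KO replicate 1 (-0.56) or 3 (-0.46) and without p53 WT replicate 2 (-0.50) or 3 (-0.54), at adjusted p between 0.0503 and 0.107.

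None of the 6 tested aggrecanases and versicanases, the ADAMTSs that cleave large proteoglycans, passed the test (ADAMTS1, ADAMTS4, ADAMTS5, ADAMTS8, ADAMTS9 and ADAMTS15), beside 26.5% of all genes tested that did. ADAMTS1 averaged 57.2 ± 2.92 CPM in p53 KO cells and 56.4 ± 4.69 CPM in p53 WT cells (SD, n = 3 each). The log2 fold change was 0.02 (SE 0.11, adjusted p = 0.936), and it was by far the most abundant of them. ADAMTS5, the main aggrecanase of mouse cartilage, had 1.38, 2.17 and 1.3 CPM in p53 KO libraries, against 2.03, 3.02 and 2.30 CPM in p53 WT libraries, with overlap (-0.59, SE 0.36, adjusted p = 0.259). ADAMTS4 had 0.365, 0.342 and 0 CPM in p53 KO libraries, against 0.216, 0 and 0 CPM in p53 WT libraries, too few counts to show a difference of moderate size (1.58, SE 1.45, adjusted p = 0.484). ADAMTS8 lay just outside the threshold, with 1.80, 2.86 and 3.46 CPM in p53 KO libraries, against 6.11, 4.74 and 3.12 CPM in p53 WT libraries (-0.82, adjusted p = 0.078). It was called lower with no filter on low counts, by limma-voom, without p53 KO replicate 3 and without p53 WT replicate 3. ADAMTS9 (-0.73, adjusted p = 0.369) and ADAMTS15 (-0.25, adjusted p = 0.451) were not called, and nor were ADAMTS13, which cleaves von Willebrand factor, and ADAMTS19.

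Of the inhibitors, TIMP1, TIMP2 and TIMP3 all rose. TIMP1, a secreted inhibitor of most soluble MMPs, had 795, 702 and 856 CPM in p53 KO libraries, against 422, 419 and 404 CPM in p53 WT libraries. TIMP2, which blocks MMPs and also takes part in the activation of the MMP2 precursor, had 319, 351 and 369 CPM in p53 KO libraries, against 178, 218 and 209 CPM in p53 WT libraries. TIMP3, which is bound to the matrix, had 73.9, 81.9 and 80.2 CPM in p53 KO libraries, against 55.1, 58.5 and 61.6 CPM in p53 WT libraries. In each of these genes every p53 KO library exceeded every p53 WT library. The log2 fold changes were 0.92 for TIMP1 (SE 0.09, adjusted p = 8.12e-06), 0.78 for TIMP2 (SE 0.10, adjusted p = 7.28e-05) and 0.43 for TIMP3 (SE 0.10, adjusted p = 0.00627). TIMP4 had 0.243, 0.147 and 0.451 CPM in p53 KO libraries, against 0.331, 0.149 and 0 CPM in p53 WT libraries, at or near the level of 3 counts in a library, and was not called (0.65, SE 1.14, adjusted p = 0.738).

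The chromosomal surroundings of the TIMPs differed. TIMP1 lies on the X chromosome among genes that were also higher in p53 KO cells (local median 0.69), and relative to them it stood at 0.23 and was not called (adjusted p = 0.112). TIMP2 and TIMP3 lie among genes that were lower in p53 KO cells (local medians -0.28 and -0.52), and relative to them TIMP2 stood at 1.06 (adjusted p = 6.79e-06) and TIMP3 at 0.95 (adjusted p = 1.82e-05). Over all members tested, 9 were higher and 11 lower in p53 KO cells relative to their neighbours, beside 9.18% and 10.5% of all genes tested.

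To compare levels between genes, CPM were divided by the length of the union of exons in kb. On that scale TIMP1 was the most abundant member in both groups (538 CPM per kb in p53 KO cells and 285 in p53 WT cells), followed by TIMP2 (85.0 in p53 KO cells and 49.5 in p53 WT cells). MMP3 was at rank 19 in p53 KO cells (4.44 CPM per kb) and rank 3 in p53 WT cells (49.3 CPM per kb), where it stood beside TIMP2. ADAM19 was at rank 16 in p53 KO cells (6.83 CPM per kb) and rank 6 in p53 WT cells (23.6 CPM per kb). ADAMTS6 was at rank 4 in p53 KO cells (30.4 CPM per kb) and rank 10 in p53 WT cells (18.2 CPM per kb), and MMP24 at rank 6 in p53 KO cells (22.3 CPM per kb) and rank 15 in p53 WT cells (8.59 CPM per kb). The MMPs summed to 72.8 ± 9.10 CPM per kb in p53 KO cells and 125 ± 6.52 in p53 WT cells, the ADAMs to 95.6 ± 11.6 in p53 KO cells and 141 ± 10.8 in p53 WT cells, and the ADAMTSs to 82.4 ± 7.30 in p53 KO cells and 57.2 ± 5.48 in p53 WT cells (SD, n = 3 each). The TIMPs summed to 639.9 ± 55.0 CPM per kb in p53 KO cells and 347 ± 6.21 in p53 WT cells. The ratio of the TIMP sum to the MMP sum was 10.1, 7.98 and 8.51 in p53 KO libraries, against 2.66, 2.77 and 2.90 in p53 WT libraries. Without MMP3 the MMPs summed to 68.4 ± 9.91 CPM per kb in p53 KO cells and 75.7 ± 1.77 in p53 WT cells, and the ratio was 9.45 ± 1.28 in p53 KO cells and 4.58 ± 0.117 in p53 WT cells. The p53 KO ratio was thus 3.19 times the p53 WT ratio with MMP3 and 2.06 times without it. With TIMP1 left out of the TIMP sum, the ratio was 1.41 ± 0.0804 in p53 KO cells and 0.50 ± 0.0620 in p53 WT cells. These are ratios of transcripts and say nothing of protein or of enzyme activity, and they carry no p-value because the members were not chosen independently of earlier results.

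**Figure D4:**
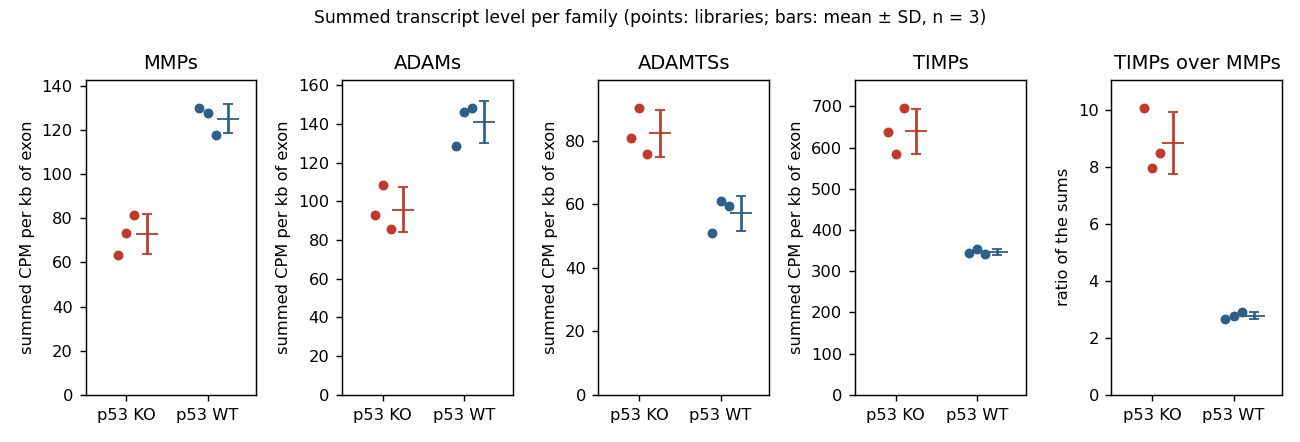
Summed levels of each family (CPM per kb of exon) in each library, with p53 KO libraries left of p53 WT libraries, points for libraries and bars for mean ± SD (n = 3), and the ratio of the TIMP sum to the MMP sum in the last panel. The MMP and ADAM sums are lower in p53 KO libraries, and the ADAMTS and TIMP sums are higher (639.9 ± 55.0 for the TIMPs in p53 KO cells and 347 ± 6.21 in p53 WT cells).

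The 24 members without a test reached at most 0.623 CPM in any library. Their highest group mean was 0.231 CPM in p53 KO cells and 0.259 CPM in p53 WT cells. They include the ADAMs of the germ line (ADAM2, ADAM18, ADAM20, ADAM29 and ADAM30), MMP11, MMP21, MMP26 and MMP28, and 6 genes of the chromosome 11 cluster. MMP23A, MMP23B and ADAM7 were at 0 in all 6 libraries, where a count of 0 allows up to 3 counts, or 0.0405 CPM in the deepest p53 KO library and 0.0381 CPM in the deepest p53 WT library. MMP23A and MMP23B are near-identical copies whose reads may not be assignable to one of them, and 3 members (ADAM5, ADAM6 and MMP23A) are listed as transcribed pseudogenes in RefSeq.

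Genes that act with the members were followed through lists of their activators, relatives and substrates. Of 36 activators and other inhibitors of pericellular proteolysis, 33 were tested, 4 rose and 10 fell, beside 12.1% and 14.4% of all genes tested, the shares to which the counts of the next lists also compare. KLK6, a kallikrein protease, stood at 63.3 ± 9.17 CPM in p53 KO cells and 2.38 ± 0.439 CPM in p53 WT cells (log2 fold change 4.77, SE 0.18). SERPINE2 (protease nexin) stood at 28.3 ± 1.5 CPM in p53 KO cells and 134 ± 9.67 CPM in p53 WT cells (-2.25). PLAU, the urokinase whose product plasmin can activate MMP precursors, stood at 16.8 ± 2.01 CPM in p53 KO cells and 67.5 ± 6.74 CPM in p53 WT cells (-2.0), and was named after its value was seen. Of 13 ADAMTS-like and microfibril genes, 11 were tested, 3 rose and 4 fell, among them MFAP5 (2.25), LTBP2 (-2.10) and LTBP1 (-1.48), all parts of microfibrils or of their complexes with latent TGF-beta. Relative to their chromosomal neighbours MFAP5 stood at 2.43, LTBP2 at -1.19 and LTBP1 at -1.25.

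Of 33 partners and shed substrates of ADAM10 and ADAM17, 30 were tested, 3 rose and 9 fell. N-cadherin (CDH2), which ADAM10 cleaves, stood at 125 ± 11.2 CPM in p53 KO cells and 305 ± 15.6 CPM in p53 WT cells (-1.29). The receptor phosphatase PTPRK (-1.32) and NOTCH1 (-1.16), both cut by ADAM sheddases, also fell. Relative to their chromosomal neighbours CDH2 stood at -0.87, PTPRK at -1.28 and NOTCH1 at -0.58. The membrane-bound chemokine CX3CL1 rose by 3.36 (SE 0.59), at 1.56 ± 0.391 CPM in p53 KO cells and 0.150 ± 0.0154 CPM in p53 WT cells. CX3CL1 entered the test through its p53 KO counts (104, 52 and 40), and at p53 WT counts of 12, 9 and 4 its fitted fold change is imprecise. Of 28 matrix substrates, 25 were tested, 5 rose and 8 fell. COL6A3, a collagen VI chain, stood at 41.7 ± 7.92 CPM in p53 KO cells and 265 ± 48.5 CPM in p53 WT cells (-2.66), and TNC (tenascin C, -1.92) and COL5A1 (collagen V, -1.88) fell with it. Relative to their chromosomal neighbours COL6A3 stood at -2.48, TNC at -2.05 and COL5A1 at -1.33. BGN (biglycan), a small proteoglycan, rose by 3.44, at 8.02 ± 0.443 CPM in p53 KO cells and 0.771 ± 0.334 CPM in p53 WT cells. The median log2 fold changes were -0.37, -0.29, -0.12 and -0.16 over the tested genes of these 4 lists, in the order given, beside 0.01 over all genes tested.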

How the data were processed

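The deposited counts are raw, with a row per gene symbol and 1 column per library. Sample titles gave the groups and replicate numbers. Tools named, per the submitters' processing notes, are fastp 0.21.0, HISAT2 2.1.0 and DESeq2 1.3.6, with the build GRCh37 (hg19), and the libraries were stranded polyA libraries per the labels. No source used here names the counting tool, its annotation or its strand setting. The authors' own comparison, also deposited, gives for each gene the signal as mean normalised counts, a log2 fold change, scores for its standard error and test, p-values before and after adjustment, and a mark for a p53 cistrome. Only that mark was printed from it. The sign of its log2 values is p53 WT over p53 KO. Its test score has the opposite sign to the log2 value in all 35987 rows.

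The test of all genes was the quasi-likelihood F-test of edgeR 4.0.16, run in R 4.3.3 on the counts (robust, TMM, filterByExpr, Benjamini-Hochberg over the 22352 genes tested, threshold 0.05). Log2 fold changes put p53 KO over p53 WT, with the SE taken as their size over the square root of F. Per-kb levels used exon unions of GENCODE 29, and gene order and promoters came from RefSeq GRCh38.p14, a build other than that of the counts, matched by symbol with no coordinates mixed. The local median was taken over the 50 nearest tested protein-coding genes. The fits were run on simulated counts with the same spread for every gene, in which only well-counted genes were changed. That simulation does not cover members with few counts. A count of 0 allows up to 3 counts, between 0.0381 and 0.150 CPM by library, and floors and intervals cover counting error only. No per-sample column was left unused. The 15 alternatives tried were other composition factors (RLE, upper-quartile, none) and filters, DESeq2 1.42.0, limma-voom 3.58.1, a replicate block, subtraction of the local median and each library left out. Calls at a stricter threshold were counted apart from these.

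Members and lists were chosen with earlier results of these data known. The genes named with values were every member past the threshold, 16 members named whatever their result (such as MMP14, ADAM10 and the TIMPs), and from each list the 3 genes with the smallest adjusted p and the largest change called in the other direction. Some genes under this rule are not reported here. NECTIN1, of the ADAM10 and ADAM17 list, was not analysed here.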

Additional observations from a re-analysis of the deposited data

How the results depend on the processing

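Of the 24 members called, 16 kept their call and direction under all 15 alternatives: MMP2, MMP3, MMP9, MMP10, MMP16, MMP24, ADAM11, ADAM12, ADAM17, ADAM19, ADAMTS3, ADAMTS6, ADAMTS10, ADAMTS17, TIMP2 and TIMP3. MMP10 passed the filter on low counts only through its p53 WT libraries, a limit that its place in this list does not remove. Over the alternatives, 9 to 12 members were called higher and 8 to 13 lower. With single libraries left out, 4160 to 6059 of all genes, 11 to 12 higher members and 8 to 12 lower members were called. At an adjusted p under 0.01, 3758 of all genes were called. ADAMTS2 lost its call with RLE factors (-0.69), upper-quartile factors (-0.67), no composition factors (-0.68) and the replicate block (-0.75). MMP1 was not tested when at least 1 CPM was required in 3 libraries. Some alternatives also added a member called lower. ADAMTS8 gained a call with no filter on low counts, by limma-voom, and without p53 KO replicate 3 or p53 WT replicate 3. MMP17 gained a call without p53 KO replicate 1. The uncalled log2 fold change of MMP14 turned to 0.074 relative to its neighbours, that of ADAM10 ranged between -0.17 without p53 KO replicate 2 and 0.16 without p53 KO replicate 3, and that of ADAMTS1 to -0.00078 with no filter, -0.0078 by limma-voom, and between -0.049 and 0.075 with single libraries left out. The cause was not tested for these changes. Whether replicate numbers pair the samples could not be decided from 3 libraries per group. Deviations of same-numbered libraries correlated at -0.0054, 0.0818 and -0.132, and those of differently numbered libraries at between -0.275 and 0.246. With the replicate block 5159 of all genes, 12 higher members and 11 lower members were called. Members below about 1 CPM, such as TIMP4 and ADAMTS4, had too few counts for all but large differences. Chosen after seeing the data, the sums without MMP3 gave a TIMP to MMP ratio 2.06 times as high in p53 KO cells as in p53 WT cells, beside 3.19 times with it, and without TIMP1 2.82 times.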
